A study of Homo sapiens with 6 samples.

Results

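Glycolysis and pyruvate metabolism were followed through 40 genes chosen by symbol, from glucose transporters to citrate synthase. Of the 40 symbols, 36 had a row among the 12306 gene rows of the deposited table, and 33 of those were high enough to be tested. PGAM1, SLC16A3, MPC1 and PC had no row of that exact symbol and are not counted. A row named PCX, which the reference tables used here tie to no gene, stood at 3.19, 3.03 and 2.96 log2 units with VS-4718 and 3.10, 2.94 and 2.95 with vehicle, with overlapping groups, and was not taken for PC. GAPDH, TPI1 and PDP2 had a row but lay at or below the filter, a mean of 0.70 log2 units, and are given as values only. The libraries came from the 92.1 line, an established line of human uveal melanoma cells. One group of 3 libraries was made after 2 h with 1 µM VS-4718, a compound that blocks the kinase FAK (focal adhesion kinase), and the other group of 3 after 2 h with the DMSO vehicle. The design text calls the samples independent, but the labels do not say whether they were separate cultures, so p-values measure only the spread between these libraries, which may be technical.

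Glycolysis splits glucose into pyruvate in the cytosol, and several of its steps can be run by different isozymes, which are separate genes for the same reaction. Pyruvate is then reduced to lactate and exported, or carried into mitochondria, where the pyruvate dehydrogenase complex turns it into acetyl-CoA for the citric acid cycle. That complex is switched off when pyruvate dehydrogenase kinases phosphorylate it and switched on again when pyruvate dehydrogenase phosphatases remove the phosphate. Hexokinase, phosphofructokinase and pyruvate kinase catalyse the steps of glycolysis that are essentially irreversible in cells.

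Each value is a log2 expression level, taken here as TPM-like, that is, scaled for transcript length and to a fixed total. That unit was inferred from the program named, kallisto, and from linear sums of 837000 to 841000 per library. Levels of different rows would then be on a per-length scale. Whether a row holds all transcripts of the human gene of that name is not stated. The measure keeps no read total, and the depth behind each value is unknown. Of 15 melanocyte lineage markers, 13 had a row. Their summed level was 7230 to 7910 TPM-like units in VS-4718 libraries and 7440 to 8020 in vehicle libraries, led by PMEL, while MLANA and TYR lay below 1 unit. Of the markers of other cell types with a row, all 6 of 9 fibroblast, 2 of 7 immune and 1 of 6 epithelial markers averaged below 1 unit. The 3 of 6 endothelial markers with a row summed to 23.9 to 28.8 units with VS-4718 and 21.9 to 26.6 with vehicle, led by EGFL7, and their part in the results was not tested.

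The names in the table follow mouse usage written in capitals, and this touches the glycolytic genes directly. GAPDH, which oxidises glyceraldehyde 3-phosphate and is usually among the most abundant transcripts of a cell, had 0.352, 0.314 and 0.592 TPM-like units in the VS-4718 libraries, against 1.09, 0.961 and 0.709 in the vehicle libraries. LDHA, the lactate dehydrogenase subunit that favours lactate production, had 0.81, 8.14 and 1.56 units with VS-4718 and 1.06, 2.18 and 1.89 with vehicle. TPI1, which interconverts the triose phosphates, had 1.21, 4.03 and 2.38 units with VS-4718 and 1.54, 0.842 and 0.83 with vehicle. These rows were near the bottom of the set in both groups, and LDHA and TPI1 overlapped between groups, while the GAPDH values did not overlap and were lower with VS-4718.

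For LDHA, GAPDH and PGAM1, a row named as a copy held more signal than the row of the gene's own name or was present where that row was missing. LDHA-PS2, by contrast, lay below the LDHA row, and no row was named as a copy of TPI1. LDHA-PS, a name that marks a pseudogene of LDHA, stood at 8.64, 8.61 and 8.70 log2 units with VS-4718 and 8.66, 8.71 and 8.64 with vehicle. PGAM1-PS2, named after phosphoglycerate mutase 1, stood at 8.62, 8.49 and 8.48 with VS-4718 and 8.54, 8.47 and 8.56 with vehicle. ALDOART2, a mouse name for a retrogene of aldolase A, stood at 7.89, 7.88 and 7.81 with VS-4718 and 7.85, 7.78 and 7.79 with vehicle, well below ALDOA itself. GAPDH-PS14 stood at 5.01, 6.56 and 6.02 with VS-4718 and 6.08, 6.13 and 5.95 with vehicle, so it varied far more among the VS-4718 libraries. Such rows were sought by the endings -PS and -RS and the names ALDOART1, ALDOART2 and ENO1B, so copies named otherwise would be missed. In all, 10 such rows were found for members of the set, 6 of them tested, and none passed the test. Which human transcripts fed them is not stated in the labels or the table. LDHA, GAPDH, TPI1 and PGAM1 transcripts therefore cannot be measured from rows of those names alone. The rows of BSG, SUCLG1 and SDHC, genes of the lists read below, also lay low in both groups. They averaged 0.236, 0.307 and 0.475 TPM-like units with VS-4718 and 0.227, 0.343 and 0.453 with vehicle. Whether these or other rows are affected in the same way was not tested. A level, or a fold between genes, given below describes rows of the table, as do the marker levels above.

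**Figure D1:**
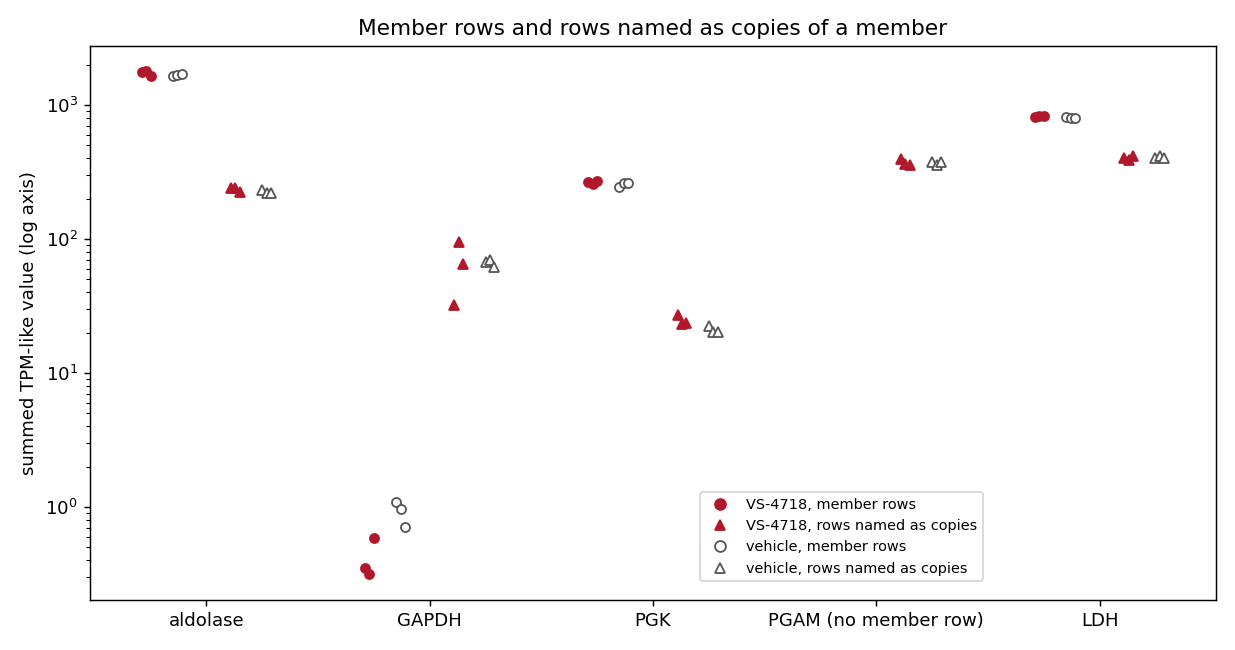
Summed TPM-like value per library (log axis) of member rows (circles) and of rows named as copies of a member (triangles) for 5 steps, with VS-4718 libraries filled and left of the open vehicle libraries. The GAPDH member row lies between 0.314 and 1.09 while its named copy lies between 32.2 and 94.5, and mutase signal is seen only in the rows named as copies.

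GPI1, the row taken for glucose-6-phosphate isomerase, also needs care. The symbol is that enzyme's name in mouse, whereas the human reference table gives it as an older name of PIGQ, a gene of GPI-anchor synthesis. PIGQ had a row of its own at 1.63 ± 0.19 log2 units with VS-4718 and 1.66 ± 0.22 with vehicle (SD, n = 3 each), and GPI1 was much higher, at 6.05, 5.99 and 5.97 with VS-4718 and 5.92, 5.83 and 5.97 with vehicle. The GPI1 groups overlapped at their edge, with a log2 fold change of 0.10 (95% interval -0.05 to 0.24).

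The levels of the 36 rows were spread over a wide range, and a few rows carried most of their sum. ENO1, ALDOA, PKM, LDHB and ENO2 together made up 82.6% to 83.2% of that sum in VS-4718 libraries and 82.3% to 82.7% in vehicle libraries. Rows named as copies are outside that sum. LDHA-PS averaged 401 TPM-like units with VS-4718 and 407 with vehicle, and PGAM1-PS2 averaged 370 with VS-4718 and 368 with vehicle. Both were above ENO2, at 353 with VS-4718 and 352 with vehicle. The order and the shares therefore hold for the 36 rows, not for the enzymes. ENO1, the ubiquitous enolase, was the highest, at 1800, 1760 and 1810 TPM-like units with VS-4718 and 1850, 1730 and 1820 with vehicle. The 36 rows held 0.792% to 0.797% of the table's sum with VS-4718 and 0.769% to 0.792% with vehicle. With the rows named as copies added, the share was 0.922% to 0.929% with VS-4718 and 0.898% to 0.924% with vehicle. Either way, the share of the table was alike in both groups.

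**Figure D2:**
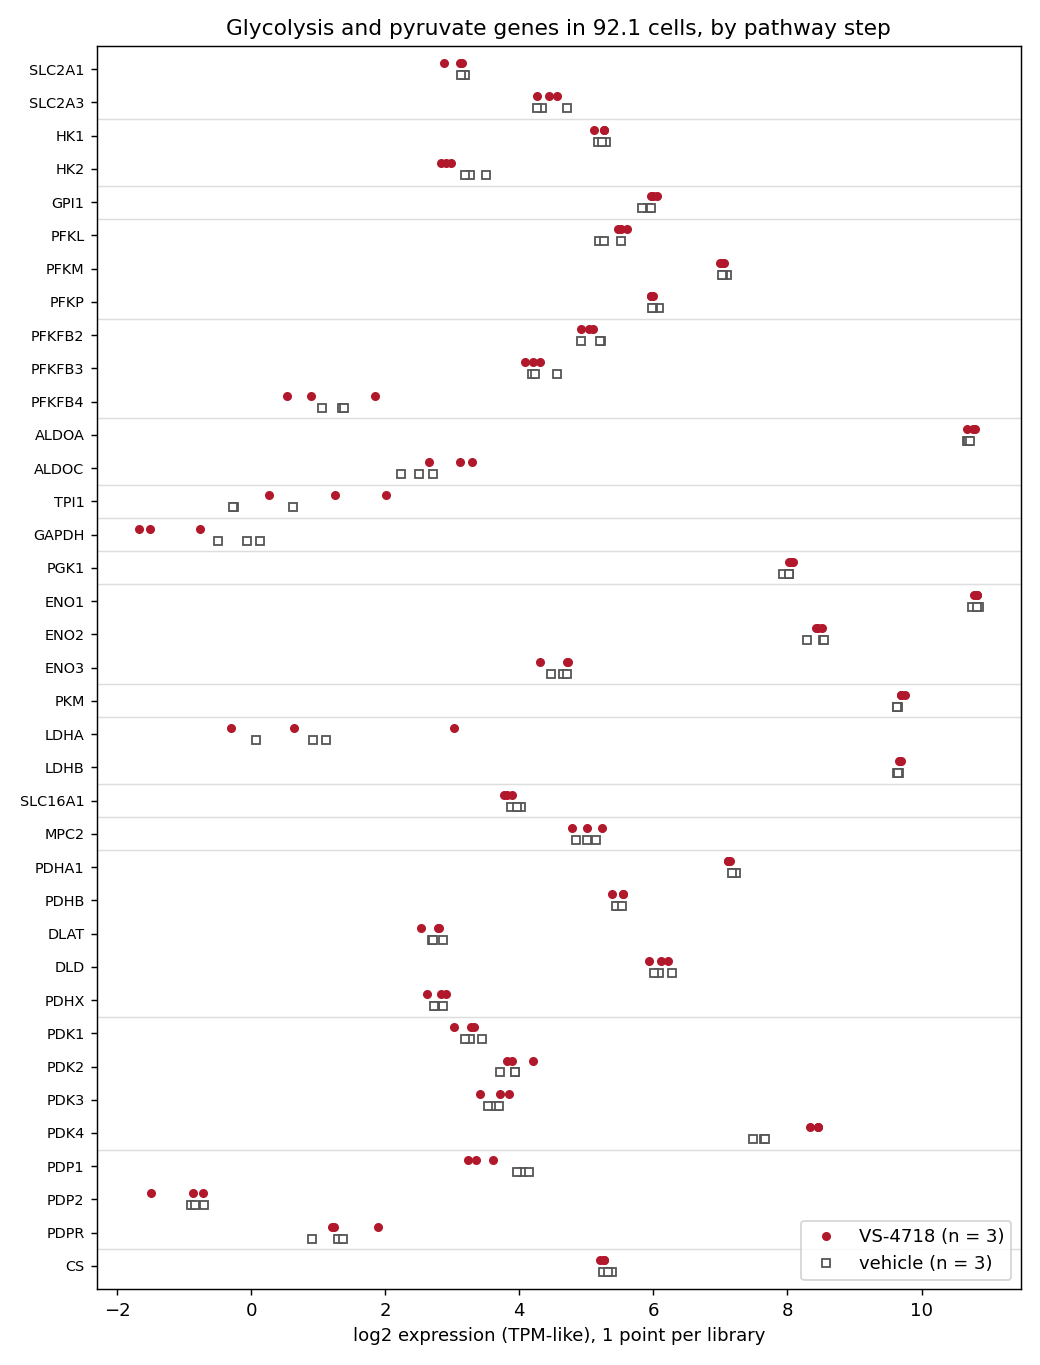
Log2 expression of the 36 rows with a value and of PDK4, 1 point per library, in pathway order, with VS-4718 (filled circles) above vehicle (open squares). The groups overlap in most rows. PDP1, HK2, PDHA1 and GAPDH, a row too low to test, lie lower with VS-4718, and PKM, LDHB and PDK4 lie higher.

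At the entry into the cell, SLC2A3, a high-affinity glucose transporter, was higher than SLC2A1, the common basal transporter, in all 6 libraries, by 1.33 ± 0.21 log2 units (SD over libraries), or 2.51-fold. SLC2A3 stood at 4.57, 4.44 and 4.26 with VS-4718 and 4.71, 4.34 and 4.26 with vehicle, and SLC2A1 averaged 3.05 ± 0.14 with VS-4718 and 3.16 ± 0.03 with vehicle. Neither passed the test, with 95% intervals of the log2 fold change from -0.35 to 0.32 and from -0.38 to 0.14.

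HK1, the housekeeping hexokinase that traps glucose as glucose 6-phosphate, was 4.32-fold above HK2, the inducible form, over the 6 libraries. HK1 stood at 5.27, 5.26 and 5.11 with VS-4718 and 5.30, 5.18 and 5.24 with vehicle, with overlapping groups. HK2 stood at 2.98, 2.91 and 2.84 with VS-4718 and 3.26, 3.19 and 3.51 with vehicle, so every VS-4718 library lay below every vehicle library.

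Phosphofructokinase commits sugar to glycolysis, and its muscle-type subunit PFKM led in every library, 2.06-fold over the platelet-type PFKP, which was in turn 1.49-fold over the liver-type PFKL. PFKM stood at 7.05, 6.99 and 7.03 with VS-4718 and 7.10, 7.04 and 7.02 with vehicle. The PFKFB enzymes make and break fructose 2,6-bisphosphate, the activator of phosphofructokinase. PFKFB2 led, at 5.10, 4.92 and 5.04 with VS-4718 and 5.22, 4.92 and 5.20 with vehicle. It lay 1.74-fold over PFKFB3, and PFKFB3 lay 8.49-fold over PFKFB4.

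Aldolase cleaves the 6-carbon sugar, and of its member rows ALDOA was by far the higher, at 10.77, 10.80 and 10.68 with VS-4718 and 10.68, 10.70 and 10.72 with vehicle. ALDOC, the brain-type aldolase, was 251-fold lower, and the rows named as copies of ALDOA summed to 235 ± 7.3 TPM-like units with VS-4718 and 225 ± 5.9 with vehicle. PGK1, a step that yields ATP, stood at 8.06, 8.02 and 8.09 with VS-4718 and 7.94, 8.03 and 8.03 with vehicle. Among the enolases ENO1 was 5.10-fold over ENO2, the neuron-type form, and ENO2 was 14.6-fold over ENO3, the muscle form, in the same order in all 6 libraries.

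At the end of glycolysis, PKM, pyruvate kinase, stood at 9.69, 9.75 and 9.70 with VS-4718 and 9.65, 9.64 and 9.64 with vehicle. LDHB, the lactate dehydrogenase subunit of oxidative tissues, stood at 9.67, 9.69 and 9.68 with VS-4718 and 9.67, 9.64 and 9.65 with vehicle. PKM was higher in every VS-4718 library than in any vehicle library. LDHB also did not overlap, but its nearest libraries, 814 TPM-like units with VS-4718 and 813 with vehicle, were almost equal. The ratio of LDHB to LDHA cannot be read from these rows, because most signal under an LDHA name sat in LDHA-PS. SLC16A1, a transporter of lactate and pyruvate, stood at 3.82, 3.89 and 3.77 with VS-4718 and 4.03, 3.87 and 3.96 with vehicle.

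In mitochondria, MPC2, a subunit of the pyruvate carrier, stood at 4.79, 5.01 and 5.23 with VS-4718 and 4.85, 5.01 and 5.14 with vehicle. The genes of the pyruvate dehydrogenase complex were unequal. PDHA1, the catalytic E1 alpha subunit, stood at 7.11, 7.12 and 7.15 with VS-4718 and 7.21, 7.23 and 7.18 with vehicle. It was 2.09-fold over DLD, the E3 subunit that other complexes share. DLD was 1.53-fold over PDHB, the E1 beta subunit, and PDHB was 6.53-fold over PDHX, the E3-binding protein. PDHX and DLAT, the E2 core, differed by 0.05 ± 0.10 log2 units (SD over 6 libraries), within their spread. CS, which joins acetyl-CoA to oxaloacetate, stood at 5.27, 5.21 and 5.26 with VS-4718 and 5.38, 5.25 and 5.33 with vehicle. A row named CSL averaged 4.81 ± 0.08 with VS-4718 and 4.96 ± 0.09 with vehicle, with overlapping groups. Whether that row is a copy of CS was not tested.

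The comparison of VS-4718 with vehicle asked whether these transcripts moved after 2 h. None of the 33 tested members passed limma with Benjamini-Hochberg adjustment over all 9229 tested rows at 0.05, where 0.13% of all rows passed (0.0433% higher and 0.0867% lower with VS-4718). At an unadjusted p under 0.05 there were 3 members, PDP1 and HK2 lower and ALDOC higher with VS-4718, against 9.76% of all rows (3.02% higher and 6.74% lower). Groups did not overlap in 5 tested members, higher with VS-4718 in PKM and LDHB and lower in HK2, PDHA1 and PDP1, against 16.4% of all rows (5.15% higher and 11.2% lower). Both shares are near the background. The median log2 fold change of the 33 members was -0.01, beside -0.03 over all tested rows; 15 members had a higher and 18 a lower mean with VS-4718, beside 3859 and 5370 of all tested rows, and 22 lay within 0.1 log2 units of 0.

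The intervals show how much change these libraries leave room for. ENO1 had a log2 fold change of -0.01 with a 95% interval from -0.09 to 0.08, ALDOA one of 0.05 from -0.04 to 0.14, and LDHB one of 0.03 from -0.04 to 0.10. For PKM the interval was -0.01 to 0.15, for PFKM -0.15 to 0.08 and for PGK1 -0.06 to 0.16. At the other end LDHA had an interval from -1.51 to 2.33 and PFKFB4 one from -0.98 to 0.64, so for those low rows large changes could not be told from none. The median half-width of the interval was 0.24 over the members and 0.30 over all tested rows.

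**Figure D3:**
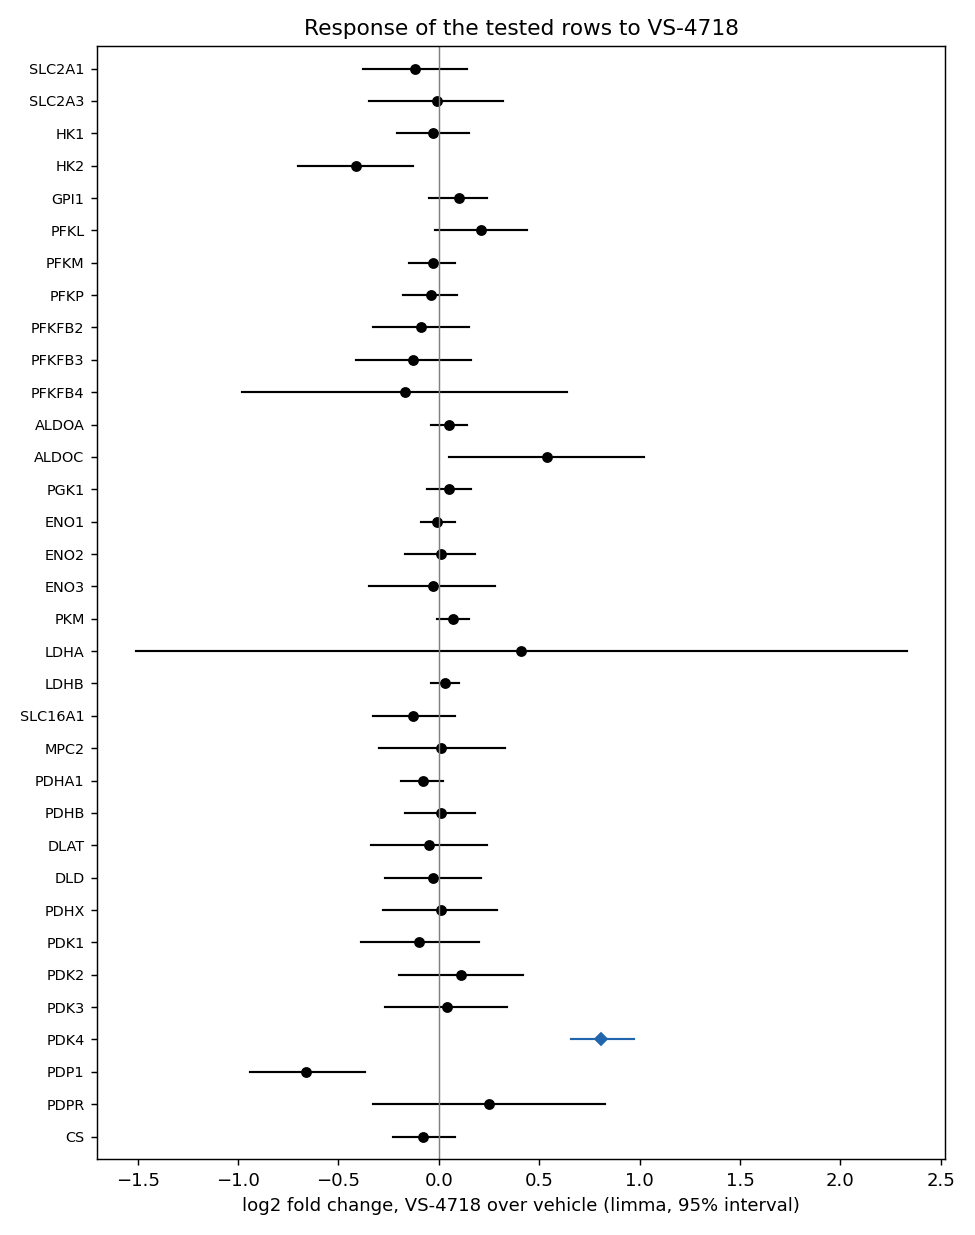
Log2 fold change of VS-4718 over vehicle for the 33 tested members (circles) and PDK4 (diamond) in pathway order, with limma's unadjusted 95% interval. The members with an interval clear of 0 are HK2 and PDP1 below and ALDOC above; none of the 3 passed after adjustment, and PDK4 passed.

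PDP1, the main catalytic subunit of pyruvate dehydrogenase phosphatase, had the smallest p of the set. It stood at 3.24, 3.36 and 3.61 log2 units with VS-4718 and 4.06, 3.97 and 4.15 with vehicle, without overlap. The log2 fold change was -0.66 (SE 0.12, 95% interval -0.94 to -0.37), a change of -36.6% in the geometric mean, with an unadjusted limma p of 0.001 and an adjusted p of 0.19. The adjusted p lay between 0.16 and 0.44 over 12 other settings, and the log2 fold change between -0.76 and -0.58. In GENCODE 29 on GRCh38 PDP1 is a protein-coding gene on chromosome 8 from 93857807 to 93926066. The PDP1 value is given per gene symbol, not per exon, and which transcripts it holds is not stated.

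The other phosphatase genes overlapped between the groups. PDP2, the second catalytic subunit, was listed at -0.87, -1.49 and -0.71 with VS-4718 and -0.89, -0.83 and -0.70 with vehicle and was too low to test. PDPR, the regulatory subunit, averaged 1.44 ± 0.39 with VS-4718 and 1.19 ± 0.24 with vehicle, with a log2 fold change of 0.25 (95% interval -0.33 to 0.83). That value was 0.028 without VS-4718 replicate 1 and 0.11 without vehicle replicate 2. The 3 rows together summed to 13.9 ± 1.1 TPM-like units with VS-4718 and 19.6 ± 1.5 with vehicle, without overlap between the groups. PDP1 therefore made up 68.9% to 80.7% of that sum with VS-4718 and 84.7% to 86.5% with vehicle.

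HK2 had a log2 fold change of -0.41 (SE 0.12, 95% interval -0.70 to -0.13), a change of -24.9% in the geometric mean, with an adjusted limma p of 0.36. Over the 12 other settings its log2 fold change ran from -0.48 to -0.32 and its adjusted p from 0.31 to 0.60. HK2 lies on chromosome 2 from 74833981 to 74893359. ALDOC stood at 3.29, 3.12 and 2.65 with VS-4718 and 2.23, 2.72 and 2.51 with vehicle, so the groups overlapped. Its log2 fold change was 0.54 (SE 0.21, 95% interval 0.05 to 1.02, adjusted p = 0.49), and it lies on chromosome 17 from 28573115 to 28577264. Over the 11 other settings that tested ALDOC its log2 fold change ran from 0.40 to 0.72 and its adjusted p from 0.32 to 0.70. Its unadjusted limma p was 0.051 under the replicate block, 0.12 or 0.097 when the first or the second VS-4718 library was left out, and 0.11 or 0.07 when the first or the third vehicle library was.

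PKM had a log2 fold change of 0.07 (SE 0.033, adjusted p = 0.55) and PDHA1 one of -0.08 (SE 0.044, adjusted p = 0.58). The SD was 0.03 log2 units with VS-4718 for PKM and 0.02 in each group for PDHA1, and neither passed. PFKL, which averaged 5.53 ± 0.06 with VS-4718 and 5.32 ± 0.17 with vehicle, had a log2 fold change of 0.21 (95% interval -0.02 to 0.44, adjusted p = 0.54).

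**Figure D4:**
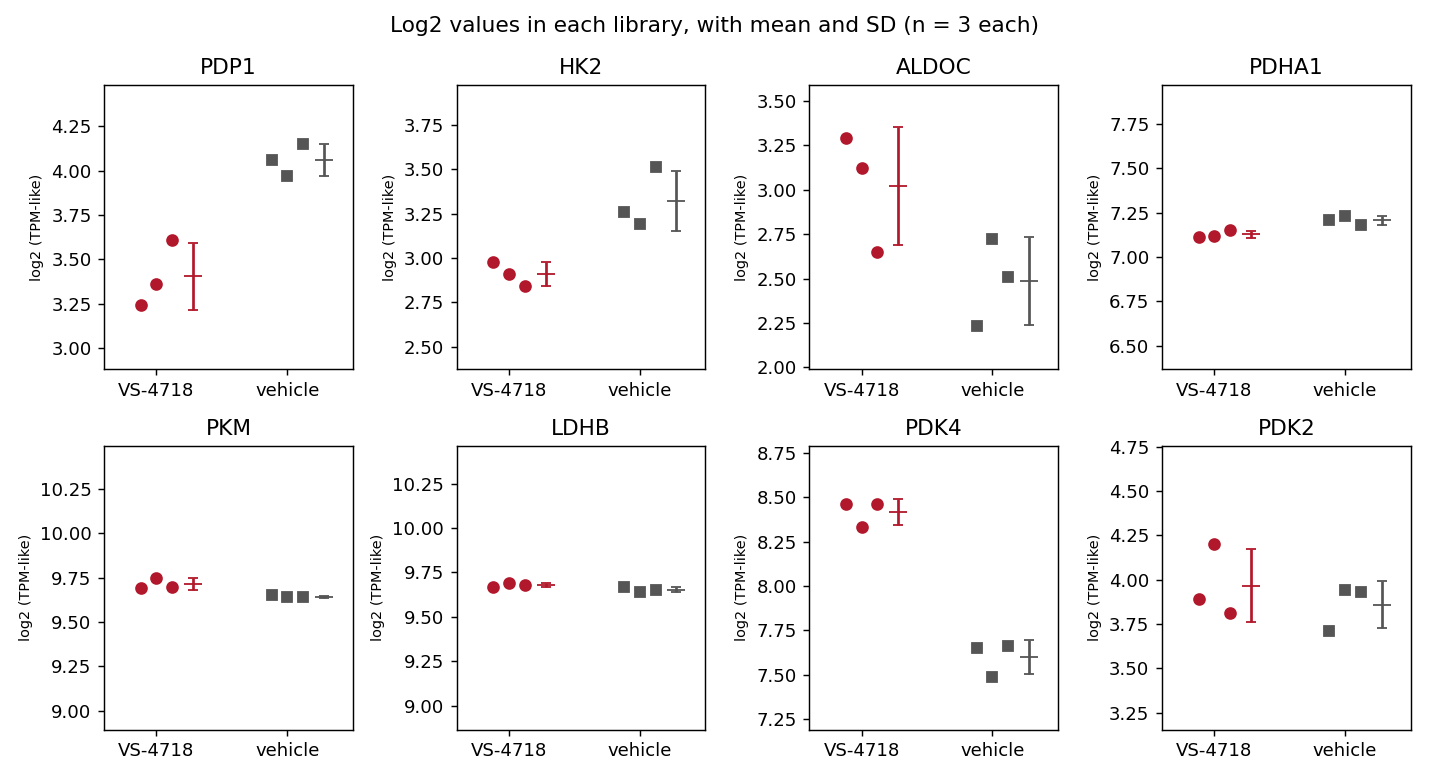
Log2 values of 8 genes in each library, with VS-4718 (circles) left of vehicle (squares), beside the mean and SD; every panel spans the same height in log2 units. PDP1, HK2 and PDK4 separate the groups by more than their spread, ALDOC and PDK2 overlap, and the gaps of PDHA1, PKM and LDHB are small.

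Isozyme balance was read as the difference of log2 values within a library, which a scaling factor of the library cannot move. Of 15 listed pairs with both rows, 11 overlapped between the groups and 4 did not, where 16.4% of single rows did not overlap; no such share was computed for pairs. Of the 4, both phosphofructokinase pairs share PFKL and another holds PDK4, so they are not separate observations. The remaining pair, HK2 minus HK1, holds HK2, whose own row did not overlap between the groups. The 11 include LDHB minus LDHA, a ratio that cannot be read from these rows. The pairs were not fitted with limma and are given as descriptions; an exact permutation test of 3 libraries against 3 cannot go below a p of 0.1. HK2 minus HK1 was -2.28, -2.35 and -2.27 with VS-4718 and -2.04, -1.99 and -1.73 with vehicle. HK2 thus made up 16.4% to 17.2% of the hexokinase sum with VS-4718 and 19.6% to 23.2% with vehicle, lower in every VS-4718 library.

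In the phosphofructokinase family, PFKM minus PFKL was 1.45, 1.51 and 1.52 with VS-4718 and 1.59, 1.85 and 1.77 with vehicle, and PFKP minus PFKL was 0.37, 0.48 and 0.50 with VS-4718 and 0.57, 0.80 and 0.73 with vehicle. PFKL made up 18.9% to 19.9% of the family with VS-4718 and 15.8% to 18.2% with vehicle. The enolases showed no such gap: ENO2 minus ENO1 averaged -2.35 ± 0.04 with VS-4718 and -2.36 ± 0.10 with vehicle. The glucose transporters, SLC2A3 minus SLC2A1, averaged 1.38 ± 0.23 with VS-4718 and 1.27 ± 0.23 with vehicle, and ALDOC minus ALDOA averaged -7.73 ± 0.28 with VS-4718 and -8.21 ± 0.24 with vehicle; both overlapped.

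**Figure D5:**
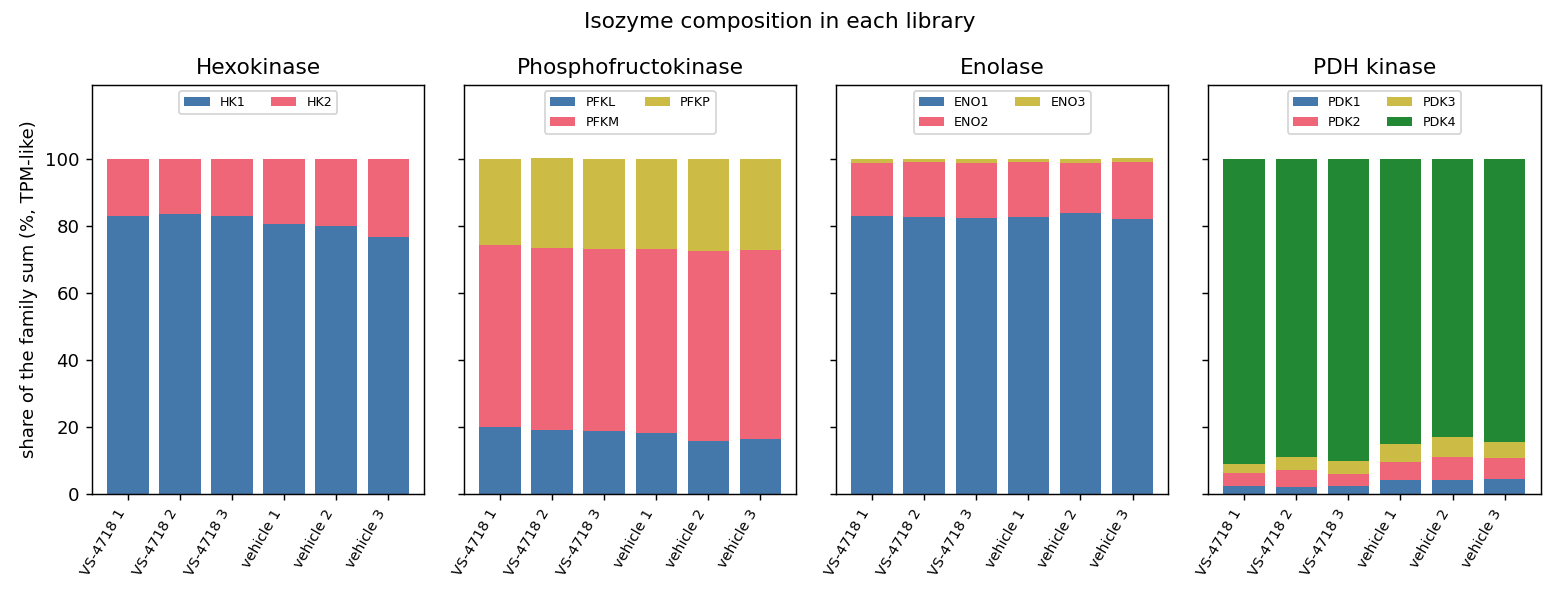
Share of each isozyme in the summed TPM-like level of its family, per library, with the 3 VS-4718 libraries left of the 3 vehicle libraries. The HK2 share is 16.4% to 17.2% with VS-4718 and 19.6% to 23.2% with vehicle, the enolase shares hardly differ, and PDK4 fills 89.0% to 90.9% of the kinase sum with VS-4718 and 82.8% to 85.1% with vehicle.

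The pyruvate dehydrogenase kinases of the set were low and did not pass. PDK2, the most widespread form, stood at 3.89, 4.20 and 3.81 with VS-4718 and 3.71, 3.94 and 3.93 with vehicle (log2 fold change 0.11, 95% interval -0.20 to 0.42). PDK3 had a log2 fold change of 0.04 (95% interval -0.27 to 0.34) and PDK1, a kinase known as a hypoxia target, one of -0.10 (95% interval -0.39 to 0.20). PDK2 and PDK3 kept the same order in 5 of 6 libraries, with a difference of 0.27 ± 0.22 log2 units. The 3 kinases summed to 35.3, 39.6 and 38.3 TPM-like units with VS-4718 and 35.2, 37.4 and 37.7 with vehicle.

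PDK4, the kinase of the family that fasting and FOXO factors induce, is not one of the 40 genes but belongs to the same step. Its row was the highest of the kinase rows. It had 352, 321 and 353 TPM-like units with VS-4718 and 201, 180 and 203 with vehicle, 17.1-fold above PDK2 over the 6 libraries. The log2 fold change was 0.81 (SE 0.065, limma, adjusted p = 0.014). That call was lost in 7 of the 12 other settings, with adjusted p from 0.0067 to 0.13, while the log2 fold change stayed between 0.76 and 0.86. PDK4 minus PDK2 was 4.57, 4.13 and 4.65 with VS-4718 and 3.94, 3.56 and 3.73 with vehicle. The gap in that pair follows from PDK4, since PDK2 overlapped between the groups.

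PDK4 is the row of this pathway that passed the test, so the 250 bases before its start are printed, from RefSeq on GRCh38.p14 (chr7:95596517-95596766, minus strand, 5′ to 3′), with matches to the GC box GGGCGG and the CCAAT box CCAAT in capitals.
PDK4: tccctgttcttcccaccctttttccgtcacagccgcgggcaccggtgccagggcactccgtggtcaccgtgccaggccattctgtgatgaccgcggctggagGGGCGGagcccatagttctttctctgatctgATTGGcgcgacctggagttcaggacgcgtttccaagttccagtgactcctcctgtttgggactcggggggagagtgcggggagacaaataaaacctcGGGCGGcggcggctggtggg
The GC box, bound by SP-family factors, matched 148 and 20 bases before the start, and the CCAAT box, bound by NF-Y, matched on the opposite strand 117 bases before it. Over both strands, the GC box was in 42.6% of all 35116 RefSeq windows of this length and the CCAAT box in 32.0%. A forkhead element (TGTTTAC, in 2.98% of windows), a TEAD element (CATTCC, 11.9%) and the hypoxia cores ACGTG (18.5%) and GCGTG (32.2%) had no match in this window. The motifs do not overlap here, and a match or its lack describes only these letters.

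Of the 40 genes, 36 had such a window, with GPI used for GPI1. The members' share was well above that of all 27305 genes in the table for 4 of the 6 motifs. The GC box lay in a window of 32 of the 36 genes (88.9%), beside 46.2% of all genes, and the CCAAT box in 22 (61.1%), beside 37.0%. ACGTG, the core that hypoxia-inducible factors bind, also lay in 22, beside 21.7%, and GCGTG in 22, beside 36.2%. The TEAD element lay in 6 (16.7%), beside 14.3% of all genes, and the forkhead element in 0, beside 3.66%. A gene with several listed starts has several windows, and the table also holds non-coding genes, so the shares are descriptions.

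Other genes of carbon metabolism were read from lists chosen with earlier results known. Of the other glycolytic enzymes 6 of 23 had a row and were tested; none passed and 1 had an unadjusted p under 0.05. That was BPGM, which makes 2,3-bisphosphoglycerate, at 3.25 ± 0.17 with VS-4718 and 3.63 ± 0.07 with vehicle (log2 fold change -0.38, SE 0.12, limma, adjusted p = 0.38). Of the other transporters and their regulators 3 of 17 were tested and none passed. SLC2A8, an intracellular glucose transporter, averaged 4.59 ± 0.30 with VS-4718 and 5.02 ± 0.19 with vehicle (log2 fold change -0.42, SE 0.17, limma, adjusted p = 0.49). TXNIP, which restrains glucose uptake, was too low to test.

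Relatives of the pyruvate dehydrogenase complex had 12 of 17 tested, with PDK4 as the 1 member that passed and OGDH as the other at an unadjusted p under 0.05. OGDH, the first subunit of the related 2-oxoglutarate dehydrogenase, stood at 5.01, 4.67 and 5.09 with VS-4718 and 4.16, 4.57 and 4.55 with vehicle. Its log2 fold change was 0.50 (SE 0.16, limma, adjusted p = 0.39), and its groups did not overlap. The lists of the citric acid cycle, the pentose phosphate pathway, the regulators and the hypoxia response had no call among their tested rows.

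In the citric acid cycle 16 of 22 genes were tested, with a median log2 fold change of -0.07. ACO1, the cytosolic aconitase, averaged 4.95 ± 0.07 with VS-4718 and 4.74 ± 0.02 with vehicle, and ACLY, which makes cytosolic acetyl-CoA from citrate, 6.16 ± 0.05 with VS-4718 and 6.33 ± 0.10 with vehicle. Those 2 had an unadjusted p under 0.05, with limma adjusted p of 0.44 and 0.49. In the pentose phosphate pathway 8 of 11 genes were tested, with a median of -0.03. PGLS, its lactonase, averaged 6.19 ± 0.13 with VS-4718 and 5.96 ± 0.12 with vehicle, and TALDO1, transaldolase, 7.49 ± 0.10 with VS-4718 and 7.66 ± 0.01 with vehicle (limma, adjusted p = 0.50 and 0.44).

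Among the transcriptional regulators of glycolysis 12 of 17 were tested and none passed. The VS-4718 mean was the lower in 10 of the 12, beside 5370 of all 9229 tested rows, and the median was -0.08, beside -0.03. MLX, a partner of the glucose-sensing factors MLXIP and MLXIPL, stood at 5.85, 5.88 and 5.93 with VS-4718 and 6.13, 6.33 and 6.11 with vehicle (log2 fold change -0.30, SE 0.077, limma, adjusted p = 0.33). MAX, the partner of MYC, stood at 6.09, 5.96 and 5.90 with VS-4718 and 6.10, 6.81 and 6.42 with vehicle (log2 fold change -0.46, SE 0.17, adjusted p = 0.47). HIF1A averaged 5.20 with VS-4718 and 5.29 with vehicle, and MYC 6.91 with VS-4718 and 6.93 with vehicle.

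Hypoxia-response genes outside glycolysis had 9 of 16 tested, with a median of 0.08, and none passed. KDM3A, a histone demethylase induced by hypoxia, averaged 4.92 ± 0.08 with VS-4718 and 4.67 ± 0.14 with vehicle (log2 fold change 0.25, SE 0.094, limma, adjusted p = 0.48) and was the 1 gene of that list with an unadjusted p under 0.05.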

How the data were processed

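RNA of the 92.1 line was sequenced from 3 libraries of cells given VS-4718 and 3 given DMSO. The submitters' processing notes name kallisto (no version) and GRCh38, with no index, strand setting or filter. Per gene symbol, the table deposited by the authors holds log2 values, and their linear sums, 837000 to 841000 per library, were taken as those of a TPM-like measure. No library pair held identical values.

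The lowest 25% of rows by mean were left out (9229 left, mean over 0.70) and the rest fitted with limma 3.58.1 in R 4.3.3 (a linear model with group as its term and variances that follow the mean), two-sided, with Benjamini-Hochberg adjustment at 0.05 over all tested rows. The script was tested on simulated data. Members were matched by exact symbol; the 40 members and all lists were chosen with earlier results of these data known. Per-library values are given for members with an unadjusted p under 0.05, members without overlap and the leading isozyme of each step; from other lists, up to 4 genes with an unadjusted p under 0.05, and PDK4. Rows named as copies of a member and cell type markers were also listed. TXNIP, BSG, SUCLG1, SDHC, CSL, HIF1A, MYC and PIGQ, and the other members given per library, were picked after their values were seen. Coordinates are from GENCODE 29. The fit was repeated with the replicate number as a block, with each library left out in turn, with median scaling, with all rows, with the lowest 50% left out, with no trend, and with a pseudocount of 1. Figures were drawn with matplotlib 3.10.9.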

Additional observations from a re-analysis of the deposited data

How the results depend on the processing

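No member was called under any of the 12 alternatives; at an unadjusted limma p under 0.05 there were 2 to 5 members, 5 of them with median scaling and 5 of 36 with no filter. PDP1 had the lowest adjusted p of the set throughout. The 12 rows called over the whole table became 0 under the replicate block and 0 in limma without trend, where 793 and 910 rows had an unadjusted p under 0.05; the cause was not tested. With a library left out there were 0 to 7 calls: 7 without vehicle replicate 2 (5 shared with the 12), 1 without VS-4718 replicate 1, and 0 without each of the other 4, where 706 to 990 rows had an unadjusted limma p under 0.05. Residuals of libraries that share a number correlated at 0.13, 0.05 and 0.03, and the other pairs lay between -0.09 and 0.05. The same-number values were small but all positive, and they do not settle whether the libraries were paired. The main fit took no pairing, and the replicate block is given as an alternative. Of 390 values of single members under an alternative, 355 kept their direction and 35 reversed, in 15 members. With median scaling the reversed log2 fold changes were 0.021 for SLC2A3, 0.0035 for HK1, 0.00064 for PFKM, 0.029 for ENO1, 0.0011 for ENO3 and 0.005 for DLD. With a library left out the values ran from -0.10 to 0.12 for SLC2A3, -0.059 to 0.022 for HK1, -0.55 to 0.11 for PFKFB4, -0.033 to 0.015 for ENO1, -0.078 to 0.050 for ENO2, -0.10 to 0.10 for ENO3, -0.54 to 1.1 for LDHA, -0.022 to 0.063 for PDHB, -0.091 to 0.036 for DLAT, -0.093 to 0.050 for DLD, -0.054 to 0.086 for PDHX, -0.0085 to 0.19 for PDK2, -0.054 to 0.16 for PDK3 and -0.099 to 0.12 for MPC2. The depth is unknown, and rows of low level have the widest intervals.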
